A study of Mus musculus with 12 samples.

Results

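The genes described here are 38 genes of the lysosome, chosen by name from the 54547 genes of the deposited table: cathepsins, other acid hydrolases, proteins of the lysosomal membrane, subunits of the proton pump, the transcription factor gene Tfeb and the progranulin gene Grn. All 38 names were found. Lysosomes are acidic compartments in which proteins, glycans and lipids are broken down by hydrolases that work at low pH. A vacuolar ATPase pumps the protons in, heavily glycosylated membrane proteins line the compartment, and factors of the MiT/TFE family such as TFEB switch on many of the genes together. Microglia and macrophages, which digest what they engulf, are known for high lysosomal gene expression, and several of these genes cause storage diseases of the brain when lost.

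RNA was sequenced from 4 groups of 3 libraries each, all from mice of a mixed 129 and C57BL/6 background. Every group, controls included, carried Msi1-CreER, a tamoxifen-dependent Cre driven from Msi1, a gene active in neural progenitors. Mice with Msi1-CreER and RasV12, an oncogenic form of Ras, gave GFP+ cells and CD11b+ phagocytes of brain tumors. Control mice with Msi1-CreER and GFP gave the same populations from the cerebellum. Tumor tissue and RasV12 differ together from control tissue and GFP, so the 2 cannot be told apart, and ages are not given in the labels. Whether each library is a separate animal is not stated, and the p-values therefore rest on a spread between libraries that can be technical in part.

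Values are normalized counts, which the authors deposited, and fold changes are on the scale of log2(normalized count + 1), which understates the change of low genes. Tests were limma-trend fits over the 29835 genes that reached 10 normalized counts in 3 or more libraries. The 4 groups shared 1 spread per gene, so an SE does not measure the spread of the CD11b+ libraries alone. Between libraries of a group Pearson's r of log2 values was 0.51 to 0.54 in RasV12 CD11b+ and 0.66 to 0.89 in control CD11b+. It was 0.81 to 0.84 in control GFP+ and 0.84 to 0.88 in RasV12 GFP+, so the spread was not equal. A gene passed at a Benjamini-Hochberg adjusted p under 0.05, and every adjusted p is limma's unless another tool is named. Read totals were 18519240 to 34432725 in the GFP+ libraries and 7883870 to 34601205 in control CD11b+ libraries. They were only 3642570 and 2951629 in RasV12 CD11b+ 1 and 2, against 23589310 in RasV12 CD11b+ 3. Counts over olfactory and vomeronasal receptor genes, which brain cells are not expected to use, gave an estimate of background reads. For each library 1 rate per base of exon, from the sum over these genes, was applied to every gene. In RasV12 CD11b+ 1 to 3 the receptor genes had mean counts of 254.5, 294.6 and 192.3 but medians of 44.6, 22.2 and 17.7. The higher receptor genes thus set most of the rate, which can overstate the background of a given gene. As a share of nuclear counts this background was 0.443 to 2.59% in the GFP+ libraries and 37.1 to 46.1% in the RasV12 CD11b+ libraries. Control CD11b+ 2, at 28.7%, stood apart from libraries 1 and 3 of its group, at 2.91 and 3.14%. Itgam, the gene of CD11b itself, had counts of 5010, 5085 and 5256 in control CD11b+ libraries, 1350, 1357 and 3101 in RasV12 CD11b+ libraries and at most 0.5 in GFP+ libraries, so the gene separates the 2 populations. Many markers of other cell types were lower in RasV12 than in control GFP+ cells, with 8 of 8 for oligodendrocytes and 7 of 9 for neurons. So were 4 of 8 for astrocytes, 3 of 7 for endothelial cells and pericytes, 4 of 5 for erythroid cells and 2 of 4 for choroid plexus. Of the monocyte markers 2 of 7 were higher, with a median log2 difference of -0.42 over the 7. Of the osteoclast markers 1 of 5 was higher. Of the tested microglia and macrophage, neutrophil and lymphocyte markers 0 passed. Erythroid markers summed to 8894, 774410 and 184472 counts in control GFP+ and to 82.9 to 506.8 in RasV12 GFP+ libraries. Mitochondrial reads were 20.1 to 30.4% in control and 1.53 to 2.62% in RasV12 GFP+ libraries, and 0.63 to 2.54% in control and 13.3 to 17.7% in RasV12 CD11b+ libraries. The part of these in the results was not tested.

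Of the 38 genes 37 were tested, and 27 of them passed in at least 1 of the 5 comparisons made. The gene left out was Ctsw, whose counts were 0 to 58 in every library. The 11 genes without a pass were Ctsw and Ctsk, Glb1, Gla, Neu1, Ppt1, Psap, Lipa, Npc1, Npc2 and Scarb2. Comparisons that have a group in common share its libraries and are not independent of each other.

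**Figure D1:**
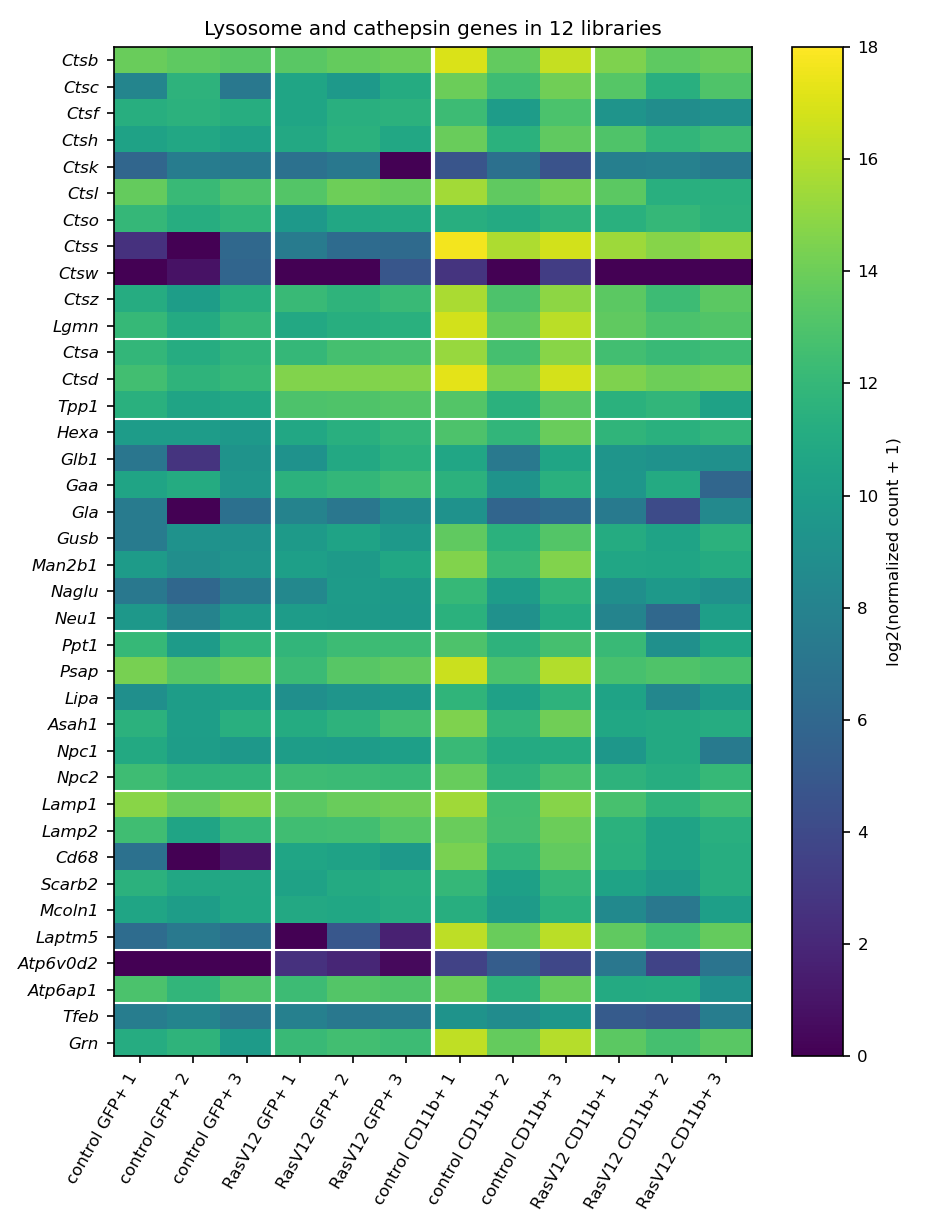
Level of each of the 38 genes (rows, grouped by role with white lines between roles) in the 12 libraries (columns), as log2(normalized count + 1). Control CD11b+ 1 and 3 are the brightest columns for many genes and control CD11b+ 2 is dimmer, while Ctss, Cd68 and Laptm5 are dark in control GFP+ cells.

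Promoters were looked at for the letters that TFEB-family factors are known to bind. RefSeq promoter windows of build GRCm38.p6, from 250 bases before to 50 bases after a start site, were found for 32 of the 38 genes. These 32 genes had 37 windows, and a gene was counted if any of its windows held a match. CACGTG, the core of the E-box, was searched on both strands. It stood in a window of 11 of the 32 genes (34.4%), against 8.09% of the 27025 genes with such windows. The longer TCACGTG, which contains that core, stood in 9 of the 32 (28.1%) against 4.29% of all genes. The 9 genes were Lgmn, Ctsa, Ctsd, Glb1, Gaa, Gla, Naglu, Lamp1 and Mcoln1. A match is a description of the letters and does not show that a factor was bound. The 4 of them with the highest mean counts are printed 5′ to 3′ on the gene's own strand, since they range from Ctsd, which rose in RasV12 GFP+ cells, to Lamp1, which did not. Capitals mark TCACGTG on either strand. The windows are chr7:142387778-142388077 on the minus strand for Ctsd, chr12:102439043-102439342 on the minus strand for Lgmn, chr8:13158911-13159210 on the plus strand for Lamp1 and chr2:164833523-164833822 on the plus strand for Ctsa.
Ctsd: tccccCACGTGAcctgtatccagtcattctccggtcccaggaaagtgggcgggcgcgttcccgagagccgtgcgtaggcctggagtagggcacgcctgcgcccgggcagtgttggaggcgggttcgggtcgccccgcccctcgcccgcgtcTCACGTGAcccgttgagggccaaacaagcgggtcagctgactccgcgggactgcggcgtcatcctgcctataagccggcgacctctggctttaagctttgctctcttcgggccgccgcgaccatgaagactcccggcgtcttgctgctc
Lgmn: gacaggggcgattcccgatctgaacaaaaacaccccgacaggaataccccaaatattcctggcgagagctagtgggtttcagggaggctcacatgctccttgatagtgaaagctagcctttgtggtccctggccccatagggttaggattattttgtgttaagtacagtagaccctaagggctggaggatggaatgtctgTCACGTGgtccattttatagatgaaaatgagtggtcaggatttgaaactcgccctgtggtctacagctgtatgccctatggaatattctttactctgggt
Lamp1: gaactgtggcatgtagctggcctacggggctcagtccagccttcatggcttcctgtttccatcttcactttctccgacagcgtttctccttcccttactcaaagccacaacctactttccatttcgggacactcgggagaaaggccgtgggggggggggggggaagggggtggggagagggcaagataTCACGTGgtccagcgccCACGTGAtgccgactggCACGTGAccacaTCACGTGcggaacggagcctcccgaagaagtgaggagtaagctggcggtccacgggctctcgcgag
Ctsa: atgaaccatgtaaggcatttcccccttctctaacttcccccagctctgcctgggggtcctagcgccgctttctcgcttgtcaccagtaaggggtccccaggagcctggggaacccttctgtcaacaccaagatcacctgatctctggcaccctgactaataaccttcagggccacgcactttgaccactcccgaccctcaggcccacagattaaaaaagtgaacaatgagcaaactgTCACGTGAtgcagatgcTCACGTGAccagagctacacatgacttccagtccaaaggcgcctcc
The Lgmn and Ctsa windows lie wholly inside the annotated gene, so their start sites are not its outermost start. Lamp1 held 4 such stretches, between positions -62 and -16 counted from the start site of the printed window as 0. Ctsd held 2, the nearer one starting at position -99, Ctsa held 2, starting at positions -13 and 4, and Lgmn held 1 at position -50.

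Per unit of transcript length, the lysosomal genes summed to different totals in the 4 groups. The authors' FPKM values of the 38 genes added up to 2515, 1478 and 2023 in control GFP+ libraries 1 to 3, and to 2325, 2879 and 3219 in RasV12 GFP+ libraries. In control CD11b+ libraries the sum was 29987, 5715 and 20156, and in RasV12 CD11b+ libraries it was 5207, 3294 and 4639. Control CD11b+ 1 and 3 were therefore several times above every other library, and control CD11b+ 2 stood near the RasV12 CD11b+ libraries. In such bulk samples fewer cells of a type and less RNA per cell cannot be told apart.

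The make-up of the sum also differed between the populations. Lamp1, a membrane glycoprotein, held 23.1 to 25.8% of the summed FPKM in the 3 control GFP+ libraries, and Psap, the precursor of the saposins that present lipids to hydrolases, was next. In RasV12 GFP+ cells the aspartic protease gene Ctsd held the largest share, 23.0% ± 3.69 (SD, n = 3), against 5.79% ± 0.33 in control GFP+ cells, and the share of Lamp1 was 11.8% ± 0.67. In CD11b+ cells the cysteine cathepsin gene Ctss led, with 33.2% ± 9.44 in control and 36.6% ± 1.42 in RasV12 libraries, followed by Ctsd with 12.5% ± 2.74 and 11.7% ± 1.10. The third place went to Lgmn in control CD11b+ cells, with 8.31% ± 1.87, and to Ctsz in RasV12 CD11b+ cells, with 8.66% ± 1.80. Ctss and Ctsd thus ranked highest in both CD11b+ groups.

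**Figure D2:**
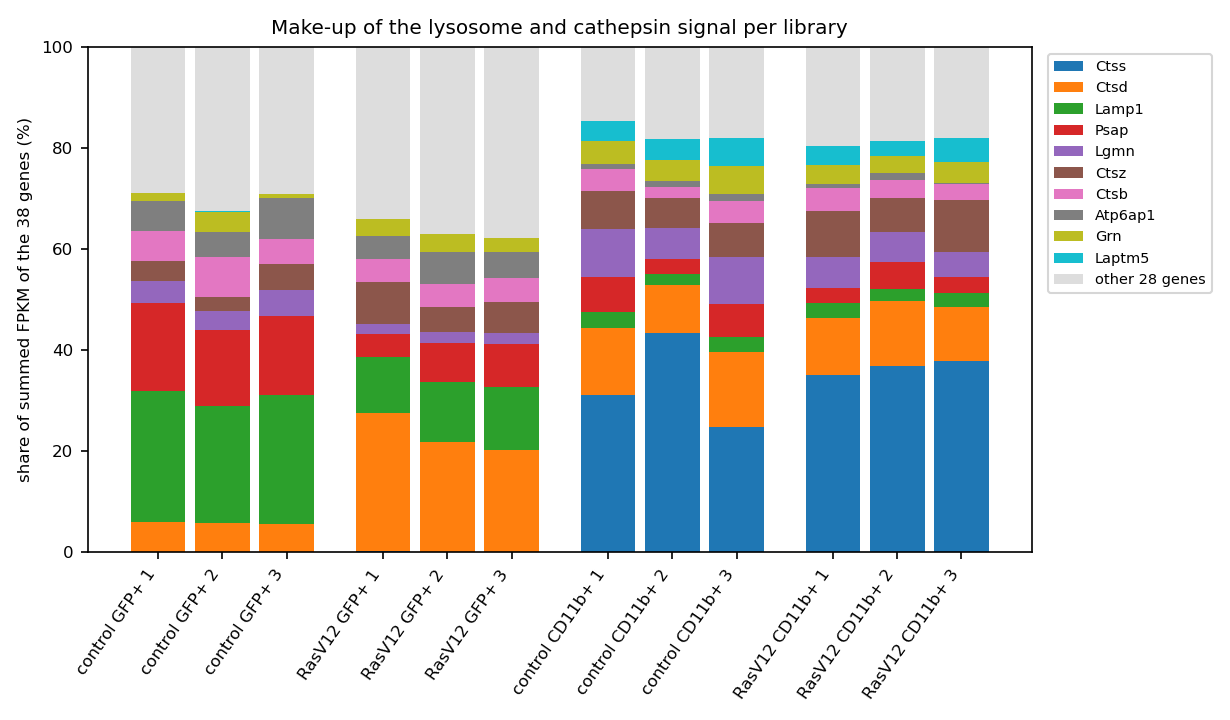
Share of each gene in the summed FPKM of the 38 genes (percent), 1 bar per library, with 10 genes in colour and the other 28 in grey. Ctss fills 24.9 to 43.4% of every CD11b+ bar and is hardly visible in GFP+ bars, and Ctsd widens from 5.79% in control GFP+ cells to 23.0% in RasV12 GFP+ cells.

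The first comparison asked how tumor GFP+ cells differ from GFP+ cells of control cerebellum. Ctsd, the gene of cathepsin D, Tpp1, the gene of a serine protease that trims tripeptides, and Cd68, a glycoprotein gene of the lysosomal membrane, rose in RasV12 GFP+ cells, and Laptm5, a membrane protein gene of blood cells, fell. These were 4 of the 37 genes tested, 3 higher and 1 lower, where 6.79% of all tested genes passed, 4.14% higher and 2.65% lower. The median log2 difference of the 37 was 0.75, beside 0.56 over all genes tested. With quantile normalization these medians were 0.88 and -0.12. With edgeR on the recovered reads 0 of the 37 passed, 8 of them at an unadjusted p under 0.05, while DESeq2 called 5 higher and 1 lower. Cd68 and Ctsd passed whichever single library was left out. The count was 7 without control CD11b+ 2, which enters only through the shared spread, and 2 without RasV12 GFP+ 1 or 3. Over all genes 1468 were higher and 914 lower without control CD11b+ 2. These were 588 and 454 without RasV12 GFP+ 1, and 635 and 485 without RasV12 GFP+ 3. Tpp1 did not pass without control GFP+ 2 (adjusted p = 0.0617) or without RasV12 GFP+ 1, 2 or 3 (adjusted p = 0.0544, 0.0571 and 0.0606). Laptm5 did not pass without control GFP+ 2 (adjusted p = 0.0537) or without RasV12 GFP+ 1 or 3 (adjusted p = 0.0663 and 0.0621).

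Phagocytes of control cerebellum were then set against the GFP+ cells of the same tissue. Of the 37 genes 19 were higher in CD11b+ cells, where 26.2% of all tested genes passed, 19.3% higher and 6.91% lower. None of the 37 was lower with limma, edgeR or DESeq2, also at an unadjusted p under 0.05. The median log2 difference was 2.12, beside 1.80 over all genes tested. With quantile normalization, which levels the libraries, the median was 1.76 beside -0.016 over all genes. Ctss, the gene of the cathepsin of antigen-presenting cells, Cd68 and Laptm5 differed most. All 3 aspartic and serine proteases, 6 of 10 cysteine proteases, 4 of 8 glycan hydrolases and 3 of 6 membrane proteins passed, against 1 of 6 genes of lipid breakdown. All 13 tested microglia and macrophage markers were higher too, with a median log2 difference of 11.14. Under every alternative run, 13 of the 19 passed: Cd68, Ctsa, Ctsd, Ctsh, Ctss, Ctsz, Grn, Gusb, Hexa, Laptm5, Lgmn, Man2b1 and Naglu.

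Within tumors the picture of phagocytes against GFP+ cells was mixed. Ctss, Laptm5, Lgmn, Ctso and Atp6v0d2 were higher in CD11b+ than in GFP+ cells, and Ctsf, Ctsl, Tpp1, Gaa, Lamp1, Lamp2, Mcoln1 and Atp6ap1 were lower. That was 5 higher and 8 lower of 37, where 40.1% of all tested genes passed, 29.8% higher and 10.2% lower. The split was 3 higher and 10 lower with upper-quartile scaling and 8 higher and 7 lower with quantile normalization. The median log2 difference was -0.21, beside 1.79 over all genes tested. This order depended on the background: after its subtraction the medians were -0.74 for the 37 and -1.23 for all genes, with 2959 genes higher and 6465 lower, and with rescaling as well -0.22 and -0.91. With edgeR 1536 of all genes were higher and 3156 lower. Without RasV12 GFP+ 3 the calls dropped to 6 and the median was 0.06, and without RasV12 CD11b+ 1 and 2, the libraries with the fewest reads, they were 7 and 0.16. Ctss, Laptm5, Tpp1 and Atp6ap1 passed under every alternative run.

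Tumor phagocytes had lower counts than control phagocytes for most of these genes. Ctsf, Ctsl, Lgmn, Man2b1, Asah1, Lamp2, Atp6ap1, Tfeb and Grn were lower in RasV12 CD11b+ cells, 9 of 37, where 5.36% of all tested genes passed, 2.97% higher and 2.39% lower. None of the 37 was higher with limma, edgeR or DESeq2, also at an unadjusted p under 0.05, at which 25 were lower with limma. The difference was below 0 for 34 of the 37, with a median of -1.88 beside 0.74 over all genes tested. With the estimated background subtracted, an alternative chosen after seeing the data, these medians were -2.23 and -0.97, and with rescaling as well -1.76 and -0.67. All genes together then shifted down too, with 643 higher and 2660 lower of 23685 after subtraction, and with edgeR 30 were higher and 404 lower. Relative to the median of all genes, which depends on the scaling, the genes' median stood at -2.62 on the log2 scale as deposited, and at -2.71 and -1.55 with upper-quartile and quantile scaling.

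The count of calls between the CD11b+ groups depended on single libraries. Without control CD11b+ 2 it was 25 of 37, all lower, with a median of -2.65. Without control CD11b+ 1 it was 0 by limma, with 16 genes at an unadjusted p under 0.05. Without control CD11b+ 3 it was 0 with 15 such genes. The medians of the 37 were then -1.42 and -1.63. The calls over all 29835 genes moved with the library too. Without control CD11b+ 2 they were 3745 higher and 1503 lower. Without control CD11b+ 1 they were 219 and 154, and without control CD11b+ 3 they were 245 and 137. Without RasV12 CD11b+ 1, 2 or 3 the calls were 5, 3 and 8, and leaving out RasV12 GFP+ 2 or 3, which enter only through the shared spread, gave 4 and 5. A fit of the 6 CD11b+ libraries alone called 0 of the 37, with 23 at an unadjusted p under 0.05. That fit called 0 of all 29835 genes as well. On all libraries edgeR called 12 of the 37 and DESeq2 16, all lower. Over all genes DESeq2 called 1291 higher and 1066 lower.

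Markers of the phagocytes themselves were compared beside these genes. The 14 microglia and macrophage markers found, of 15 listed, summed to 703150, 250332 and 672386 normalized counts in control CD11b+ libraries and to 105595, 72805 and 120390 in RasV12 CD11b+ libraries, with Trem2 at 0 in all 12 libraries. In GFP+ libraries they summed to 278.5 to 1530. The 13 tested markers had a median log2 difference of -2.03 between the CD11b+ groups; 0 passed by limma and by edgeR, 1 passed by DESeq2, and 3 had an unadjusted p under 0.05 by limma. Neutrophil markers summed to 16832 to 33666 in control and 1479 to 2902 in RasV12 CD11b+ libraries, and 3 of the 8 tested were lower. The estimated background made up at least 50% of the count for 9, 12 and 7 of the 38 genes in RasV12 CD11b+ 1, 2 and 3, against 2, 5 and 2 in control CD11b+ libraries. After its subtraction 14 of the 37 genes were lower, beside 2660 of all 23685 tested, and after subtraction and rescaling 10, beside 2296 of 23256. The part of cell make-up and of depth in these differences was not tested.

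**Figure D3:**
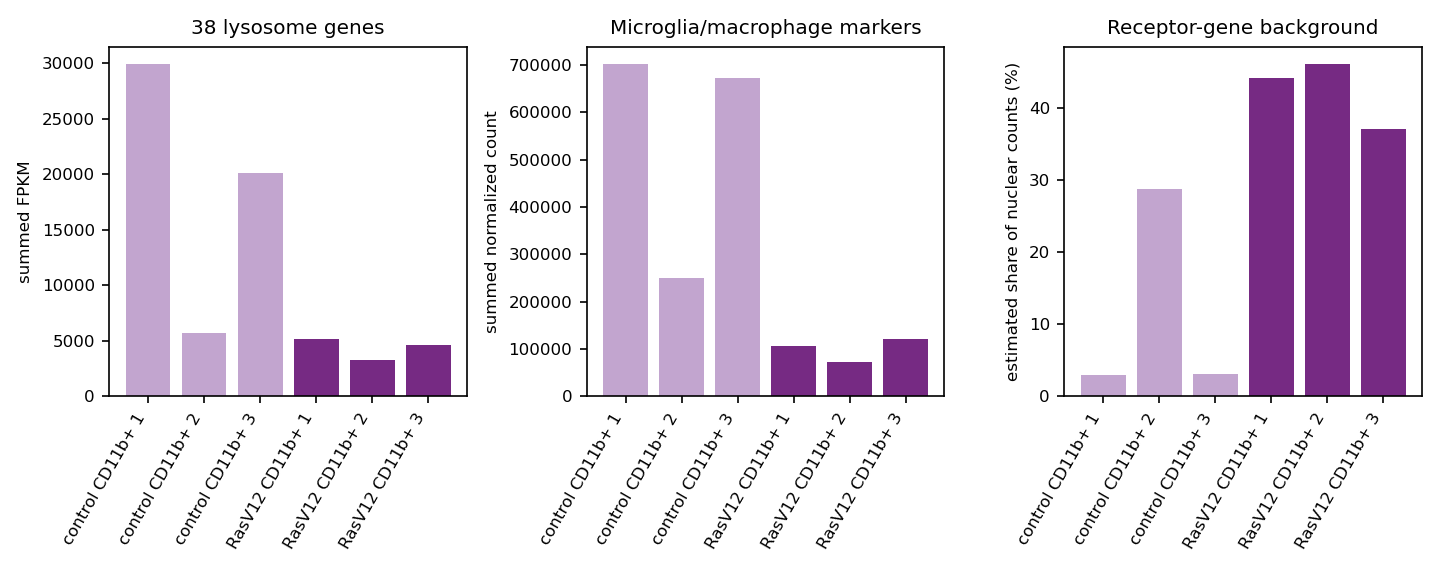
Summed FPKM of the 38 genes (left), summed normalized count of the microglia and macrophage markers (middle) and estimated background as a percent of nuclear counts (right) in each CD11b+ library. Control CD11b+ 1 and 3 are high on the left and in the middle with a background of 2.91 and 3.14%, control CD11b+ 2 has a background of 28.7%, and the RasV12 libraries have 37.1 to 46.1%.

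The RasV12 effect itself differed between the 2 populations for 10 genes: Ctsa, Ctsd, Tpp1, Hexa, Man2b1, Naglu, Asah1, Lamp2, Cd68 and Grn. For each the change in CD11b+ cells was lower than that in GFP+ cells, 10 of 37, where 4.4% of all tested genes passed this test of the difference, 2.06% higher and 2.34% lower. None was higher with limma, edgeR or DESeq2, and 1 was at an unadjusted p under 0.05 with limma. The median difference of effects was -2.71 on the log2 scale, beside 0.07 over all genes tested. With background subtracted these were -3.42 and -1.52, with 463 of all genes higher and 1974 lower, and with rescaling as well -2.90 and -1.15. With edgeR the median over all genes was -0.96. Ctsd and Tpp1 passed under every alternative run. The count of the 37 was 21 without control CD11b+ 2, 4 without control CD11b+ 1 and 3 without control CD11b+ 3. It was 6 without RasV12 CD11b+ 2, and 5 and 4 without RasV12 GFP+ 2 and 3. Over all genes 1206 were higher and 1021 lower without control CD11b+ 2. These were 329 and 353 without control CD11b+ 1, and 292 and 286 without control CD11b+ 3.

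**Figure D4:**
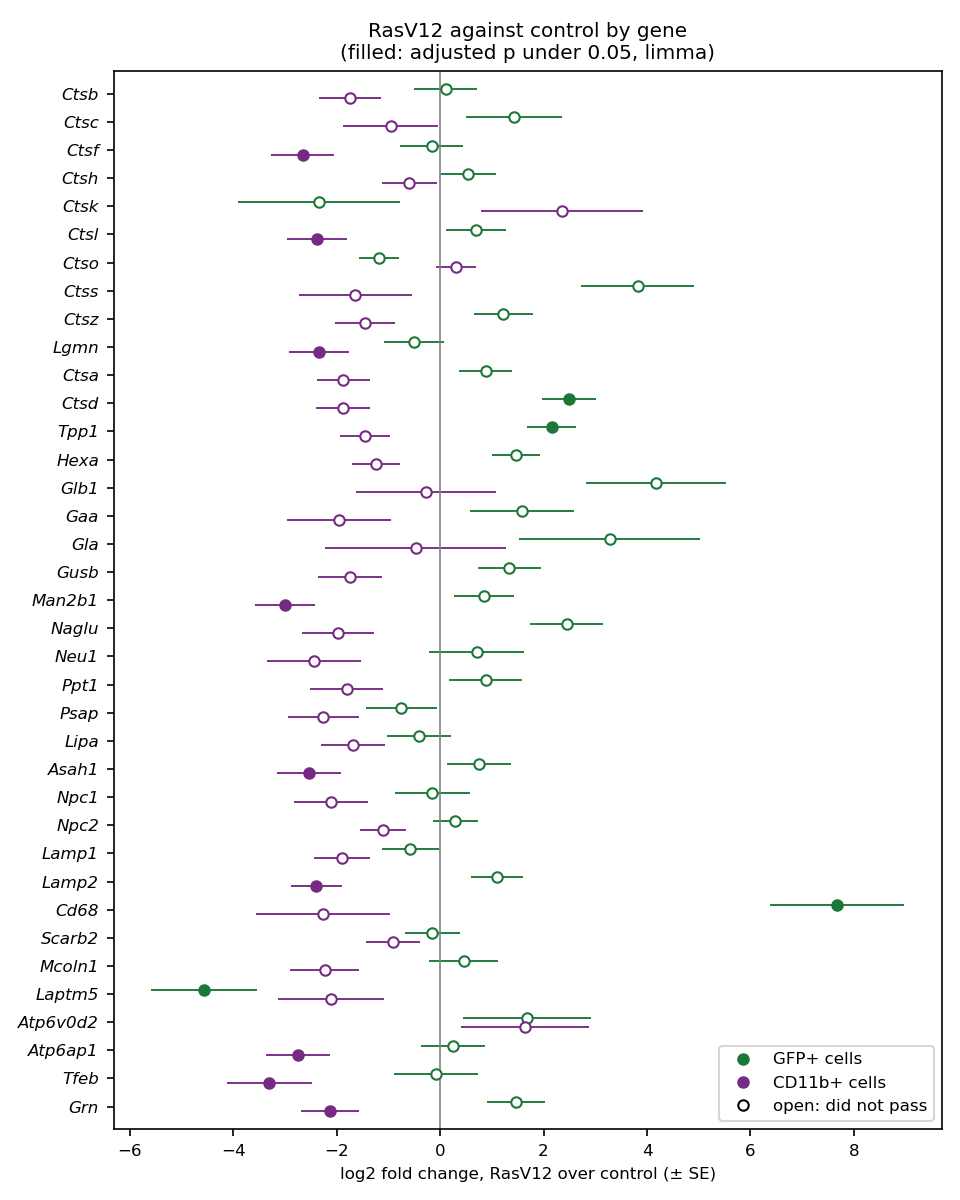
Log2 fold change of RasV12 over control (x axis, ± SE) for each of the 37 tested genes in GFP+ cells (green) and CD11b+ cells (purple), with filled points for an adjusted p under 0.05. Nearly all purple points lie left of 0, and the green points of Ctsd, Tpp1 and Cd68 lie right of it.

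Among the cysteine proteases, Ctss separated the populations most. This protease cleaves the invariant chain of MHC class II in antigen-presenting cells. Its counts were 4.8, 0 and 67.1 in control GFP+ libraries, 181.1, 78.5 and 75.5 in RasV12 GFP+ libraries, 211529, 56205 and 113488 in control CD11b+ libraries and 41287, 27447 and 39719 in RasV12 CD11b+ libraries. The CD11b+ libraries all stood far above the GFP+ libraries, and no group overlapped another. The log2 difference of CD11b+ over GFP+ cells was 13.88 (SE 1.09, adjusted p = 6.34e-06) in controls and 8.43 (SE 1.09, adjusted p = 0.000345) in tumors. The differences between RasV12 and control were 3.82 in GFP+ cells (adjusted p = 0.0528) and -1.64 in CD11b+ cells (adjusted p = 0.343), neither of which passed. The RasV12 GFP+ counts are small beside those of phagocytes. Microglia and macrophage markers summed to 350.2 to 881.5 counts in RasV12 GFP+ libraries and to 278.5, 1530 and 332.6 in control GFP+ libraries, and their part in the Ctss counts was not tested.

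Ctsb, a broad lysosomal protease gene, had counts of 15191, 11723 and 10467 in control GFP+, 10902, 13481 and 15776 in RasV12 GFP+, 130426, 13203 and 89479 in control CD11b+ and 23266, 11874 and 14795 in RasV12 CD11b+ libraries. Control CD11b+ 1 and 3 were far above the rest and RasV12 CD11b+ 1 was above every GFP+ library, while control CD11b+ 2 lay within the range of GFP+ cells. Ctsb passed in control CD11b+ over control GFP+ cells alone, at 2.12 (SE 0.60, adjusted p = 0.0211), but not without control CD11b+ 1 or 3 (adjusted p = 0.0812 and 0.0813) or without control GFP+ 2 or 3 (adjusted p = 0.0554 and 0.0559). Its RasV12 difference in GFP+ cells was 0.10 (SE 0.60, adjusted p = 0.993). Fdft1 on the other strand overlaps 12.8% of the exon bases of Ctsb, and since strand was not kept, reads there cannot be told apart.

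Ctsl, a protease gene that also acts in antigen processing, had counts of 13952, 4663 and 8138 in control GFP+ and 9083, 16868 and 14534 in RasV12 GFP+ libraries. In CD11b+ libraries they were 47528, 12426 and 19543 for control and 11034, 2681 and 2790 for RasV12. The CD11b+ groups did not overlap, though RasV12 CD11b+ 1 came near control CD11b+ 2. The gene fell by 2.38 between them (SE 0.58, adjusted p = 0.0333) and was lower in tumor CD11b+ than tumor GFP+ cells, at -1.58 (SE 0.58, adjusted p = 0.0431). The tumor call was lost with DESeq2 (adjusted p = 0.138) and without RasV12 CD11b+ 2 (adjusted p = 0.151). Ctsl kept this call in 12 of 29 alternatives, and the call between the CD11b+ groups in 18 of 29. Predicted genes overlap 32.9% of its exon bases.

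Ctsz, an exopeptidase gene, had counts of 2293, 1026 and 2479 in control GFP+, 4605, 3339 and 4802 in RasV12 GFP+, 54259, 8089 and 31693 in control CD11b+ and 11359, 5289 and 11377 in RasV12 CD11b+ libraries. Every CD11b+ library was above every GFP+ library. It passed only in control CD11b+ over control GFP+ cells, at 3.74 (SE 0.57, adjusted p = 0.000715).

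Lgmn encodes legumain, which cuts after asparagine and activates other cathepsins. It was counted at 4302, 2099 and 3997 in control GFP+, 1851, 2494 and 2710 in RasV12 GFP+, 109685, 13606 and 72898 in control CD11b+ and 12469, 7471 and 8881 in RasV12 CD11b+ libraries. All CD11b+ libraries were above all GFP+ libraries, and the 2 CD11b+ groups did not overlap. Lgmn was higher in phagocytes of controls, at 3.85 (SE 0.58, adjusted p = 0.000624), and of tumors, at 2.02 (SE 0.58, adjusted p = 0.0153), and fell by 2.35 from control to RasV12 phagocytes (SE 0.58, adjusted p = 0.0349). The tumor call was lost with edgeR (adjusted p = 0.444) and without RasV12 CD11b+ 1 or RasV12 GFP+ 1 (adjusted p = 0.0525 and 0.0533).

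Ctsc, which activates the serine proteases of granules, had counts of 290.4, 3182 and 148.5 in control GFP+, 1568, 799.1 and 2146 in RasV12 GFP+, 15938, 5490 and 17804 in control CD11b+ and 9692, 2586 and 8523 in RasV12 CD11b+ libraries. Control GFP+ 2 stood above the other 2 of its group. The gene was higher in control phagocytes, at 4.49 (SE 0.92, adjusted p = 0.00432). Ctsh, an aminopeptidase gene, had counts of 1298, 1798 and 1247 in control GFP+, 1841, 2818 and 1752 in RasV12 GFP+, 15315, 2940 and 12559 in control CD11b+ and 8587, 3727 and 5148 in RasV12 CD11b+ libraries. The CD11b+ libraries were above the GFP+ libraries of the same tissue, with RasV12 CD11b+ 2 nearest to them. It was higher in control phagocytes, at 2.53 (SE 0.53, adjusted p = 0.00476), while the tumor difference of 1.39 did not pass (adjusted p = 0.0506).

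Ctsf, a papain-like cathepsin gene that is prominent in brain, went the other way in tumors. Its counts were 2507, 2959 and 2355 in control GFP+, 1559, 2615 and 3072 in RasV12 GFP+, 5104, 984.9 and 7824 in control CD11b+ and 628.3, 454.1 and 554.9 in RasV12 CD11b+ libraries. The RasV12 CD11b+ libraries were the lowest of all 12, and the estimated background alone was 54.3 to 102% of their counts. Ctsf fell by 2.65 from control to RasV12 phagocytes (SE 0.61, adjusted p = 0.0272) and was lower in tumor phagocytes than tumor GFP+ cells, at -2.10 (SE 0.61, adjusted p = 0.0162).

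Ctso, a little studied member of the family, had counts of 4096, 2361 and 3560 in control GFP+, 854.9, 1763 and 1960 in RasV12 GFP+, 2482, 2084 and 3335 in control CD11b+ and 2732, 4010 and 3003 in RasV12 CD11b+ libraries. RasV12 GFP+ cells were the lowest group and overlapped none of the others. The gene was higher in tumor CD11b+ than tumor GFP+ cells, at 1.16 (SE 0.39, adjusted p = 0.0302), but with edgeR the sign turned, at -0.24 (adjusted p = 0.751). Of the last 2 cysteine proteases, Ctsk, known from bone-resorbing osteoclasts, had group means of 140.3, 84.2, 49.4 and 207.5 in control GFP+, RasV12 GFP+, control CD11b+ and RasV12 CD11b+ cells and passed nowhere. Background was 53.0 to 58.1% of its counts in RasV12 CD11b+ libraries. Ctsw, a gene of cytotoxic lymphocytes, had no read in any RasV12 CD11b+ library.

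**Figure D5:**
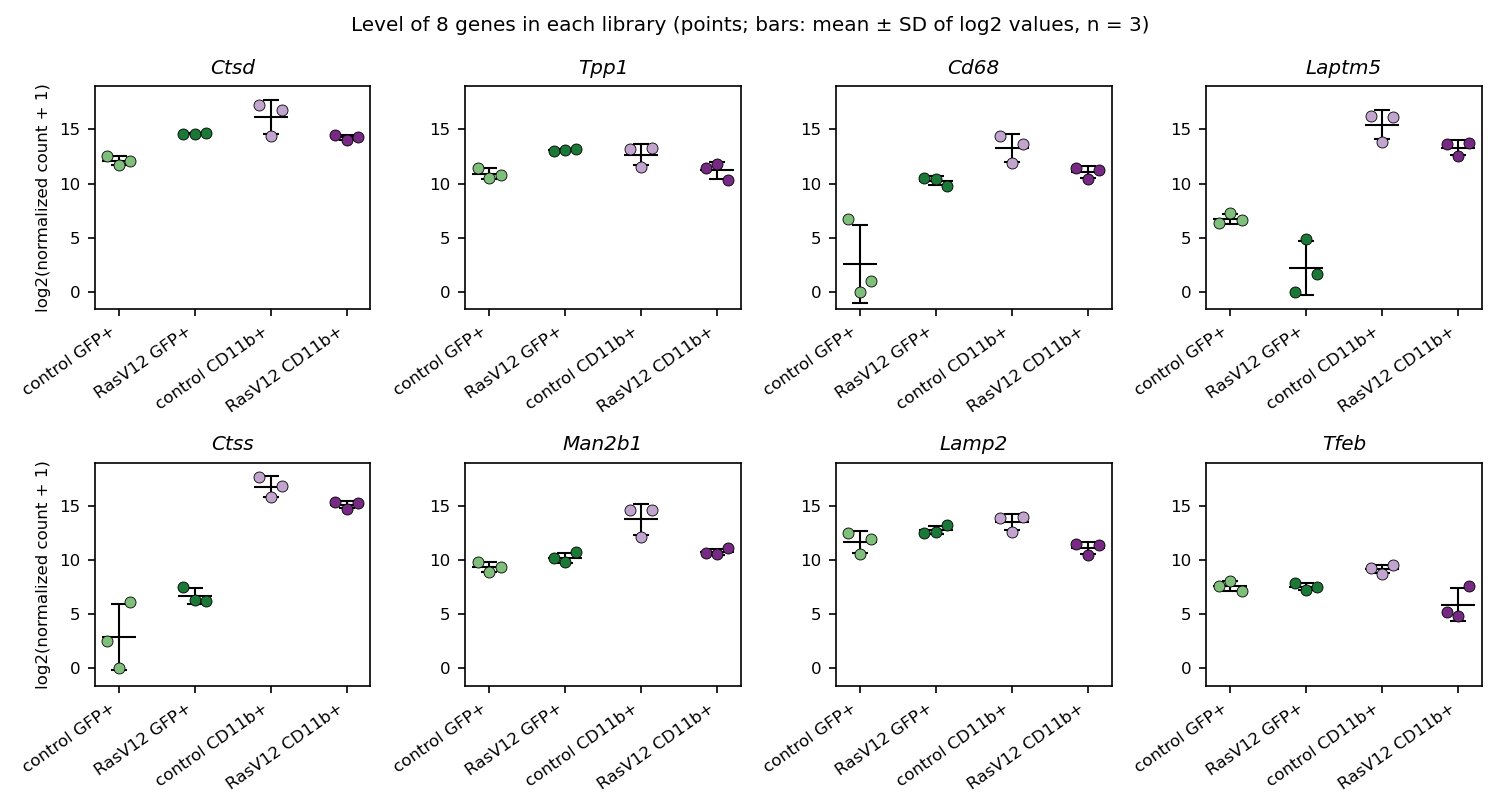
Level of 8 genes as log2(normalized count + 1) in each library (points) with the mean and SD of the log2 values of the 3 libraries of a group (bars). Ctsd and Tpp1 are higher in RasV12 than in control GFP+ cells, Cd68 and Laptm5 move in opposite directions there, and Man2b1, Lamp2 and Tfeb are lower in RasV12 than in control CD11b+ cells.

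Ctsd, the main aspartic protease of lysosomes, was the most uniform change in tumor cells. Its counts were 5982, 3404 and 4302 in control GFP+ and 24798, 24493 and 25485 in RasV12 GFP+ libraries. The 3 RasV12 libraries lay within a narrow range, several times above every control. The log2 difference was 2.49 (SE 0.52, adjusted p = 0.0119; 0.0648 with edgeR). In CD11b+ cells the counts were 155810, 21059 and 116085 for control and 23275, 16659 and 19573 for RasV12. Control CD11b+ 2 fell among the RasV12 libraries, and the difference of -1.88 (SE 0.52) did not pass (adjusted p = 0.0537). Ctsd was higher in control phagocytes than control GFP+ cells, at 4.03 (SE 0.52, adjusted p = 0.00023), whereas in tumors the 2 populations differed by -0.34 (SE 0.52, adjusted p = 0.615). The RasV12 effects differed by -4.37 (SE 0.74, adjusted p = 0.0063). The predicted gene Gm49369 on the same strand overlaps 34.4% of its exon bases.

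Tpp1, whose loss causes a childhood form of neuronal ceroid lipofuscinosis, had counts of 2801, 1472 and 1768 in control GFP+, 8072, 8591 and 9277 in RasV12 GFP+, 9394, 2950 and 10050 in control CD11b+ and 2839, 3661 and 1306 in RasV12 CD11b+ libraries. RasV12 GFP+ libraries were above all control GFP+ and all RasV12 CD11b+ libraries. It rose by 2.15 in GFP+ cells (SE 0.48, adjusted p = 0.0155), was higher in control phagocytes than control GFP+ cells, at 1.75 (SE 0.48, adjusted p = 0.018), and lower in tumor phagocytes than tumor GFP+ cells, at -1.86 (SE 0.48, adjusted p = 0.00948). The difference of the RasV12 effects was -3.61 (SE 0.68, adjusted p = 0.0102).

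Ctsa, a serine carboxypeptidase gene whose product protects neuraminidase, had counts of 3868, 2222 and 3559 in control GFP+, 3981, 6458 and 7422 in RasV12 GFP+, 38821, 6534 and 28577 in control CD11b+ and 5869, 4741 and 5338 in RasV12 CD11b+ libraries. Neither RasV12 difference passed, with 0.88 in GFP+ cells (adjusted p = 0.403) and -1.87 in CD11b+ cells (adjusted p = 0.0504). Their difference was -2.75 (SE 0.72, adjusted p = 0.0481), and control phagocytes were above control GFP+ cells by 2.63 (SE 0.51, adjusted p = 0.00319). For the difference of effects Ctsa passed in 11 of 28 alternatives. Neurl2 and Pltp overlap 17.4% of its exon bases.

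Of the hydrolases that take sugars off glycans, Man2b1, an alpha-mannosidase gene, differed most between the phagocyte groups. It was counted at 928.3, 481.2 and 662.3 in control GFP+, 1163, 885.7 and 1659 in RasV12 GFP+, 24346, 4386 and 24882 in control CD11b+ and 1600, 1506 and 2169 in RasV12 CD11b+ libraries. The 3 control CD11b+ libraries were above the other 9. Man2b1 fell by 2.996 in RasV12 CD11b+ cells (SE 0.58, adjusted p = 0.0138), passed in control phagocytes over GFP+ cells at 4.38 (SE 0.58, adjusted p = 0.000262), and the RasV12 effects differed by -3.84 (SE 0.82, adjusted p = 0.0187). Background was 22.1 to 48.7% of its RasV12 CD11b+ counts.

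Hexa, the alpha subunit of the beta-hexosaminidase that is missing in Tay-Sachs disease, had counts of 980, 999.3 and 829.1 in control GFP+, 1774, 2560 and 3788 in RasV12 GFP+, 8104, 3670 and 15442 in control CD11b+ and 3587, 2703 and 3606 in RasV12 CD11b+ libraries. All RasV12 GFP+ libraries were above the control ones, but the difference of 1.47 (SE 0.46) did not pass (adjusted p = 0.0752). Hexa passed in control phagocytes over GFP+ cells, at 3.05 (SE 0.46, adjusted p = 0.000624), and in the difference of effects, at -2.71 (SE 0.65, adjusted p = 0.0322). Tmem202 overlaps 12.8% of its exon bases.

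Naglu, which acts on heparan sulfate, had counts of 148.5, 63.4 and 191.3 in control GFP+, 345, 945.8 and 912.4 in RasV12 GFP+, 4317, 963.9 and 3514 in control CD11b+ and 508, 869.5 and 542.9 in RasV12 CD11b+ libraries. RasV12 GFP+ libraries were all above control GFP+ libraries, at a difference of 2.45 (SE 0.70) that did not pass (adjusted p = 0.053). The RasV12 effects differed by -4.42 (SE 0.99, adjusted p = 0.0238), and control phagocytes were higher than GFP+ cells by 4.32 (SE 0.70, adjusted p = 0.00104). Background was up to 41.5% of its RasV12 CD11b+ counts.

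Gusb, beta-glucuronidase, had counts of 177, 584.6 and 588 in control GFP+, 906.8, 1360 and 800.8 in RasV12 GFP+, 12577, 2829 and 9478 in control CD11b+ and 2135, 1418 and 2976 in RasV12 CD11b+ libraries. Its 1 pass was in control phagocytes over GFP+ cells, at 4.14 (SE 0.61, adjusted p = 0.000563). Gaa, which breaks down glycogen, had counts of 1474, 2186 and 716.2 in control GFP+, 2999, 3825 and 5468 in RasV12 GFP+, 3038, 613.7 and 2717 in control CD11b+ and 695.2, 2016 and 60.7 in RasV12 CD11b+ libraries. RasV12 GFP+ cells had the highest mean, and RasV12 CD11b+ 3 was below its background estimate. Gaa was lower in tumor phagocytes than in tumor GFP+ cells, at -3.17 (adjusted p = 0.0244), but not without RasV12 CD11b+ 3 (adjusted p = 0.0721) or RasV12 GFP+ 2 or 3 (adjusted p = 0.0604 and 0.0807). Glb1, the beta-galactosidase gene, had group means of 244.6, 1773, 1080 and 592.3 in control GFP+, RasV12 GFP+, control CD11b+ and RasV12 CD11b+ cells. Its difference of 4.17 in GFP+ cells (SE 1.35) did not pass (adjusted p = 0.0886). Gla and Neu1 passed nowhere, with group means of 92.0 to 279.3 and 493.9 to 1839.

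Of the 6 genes of lipid breakdown only Asah1, the acid ceramidase gene, passed. Its counts were 3013, 1099 and 2589 in control GFP+, 2139, 3124 and 6136 in RasV12 GFP+, 23180, 3655 and 17287 in control CD11b+ and 1667, 1983 and 2273 in RasV12 CD11b+ libraries. The control CD11b+ libraries were above the RasV12 CD11b+ libraries, with control CD11b+ 2 the nearest. Asah1 fell by 2.54 there (SE 0.62, adjusted p = 0.0333), was higher in control phagocytes than GFP+ cells by 2.47 (SE 0.62, adjusted p = 0.0117), and the RasV12 effects differed by -3.29 (SE 0.87, adjusted p = 0.0499). The fall passed in 20 of 29 alternatives and the difference of effects in 11 of 28. Psap had group means of 14886, 9167, 54375 and 7376 in control GFP+, RasV12 GFP+, control CD11b+ and RasV12 CD11b+ cells, and its difference between phagocyte groups was -2.26 (SE 0.69, adjusted p = 0.0698). Ppt1, a thioesterase gene, and Lipa, which splits cholesterol esters, were in the same range of differences there, at -1.80 and -1.69, as was Npc1, a cholesterol transporter gene, at -2.11. Npc2, its soluble partner, was at -1.11. None of these passed in any comparison.

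Among the membrane proteins, Lamp1 was abundant in every group. Its counts were 28946, 15247 and 23136 in control GFP+, 11452, 15232 and 17766 in RasV12 GFP+, 43304, 5969 and 26961 in control CD11b+ and 6996, 3423 and 5624 in RasV12 CD11b+ libraries. The RasV12 CD11b+ libraries were below all GFP+ libraries, and control CD11b+ 2 lay among them. Lamp1 was lower in tumor phagocytes than tumor GFP+ cells, at -1.51 (SE 0.54, adjusted p = 0.0414). This call held in 14 of 29 alternatives. It was lost with DESeq2 (adjusted p = 0.0566) and without RasV12 CD11b+ 2 or RasV12 GFP+ 3 (adjusted p = 0.14 and 0.12). In controls the populations differed by -0.18 (SE 0.54, adjusted p = 0.809) and leaving out control CD11b+ 2 turned the value to 0.66. Lamp1 differed by -0.57 in RasV12 GFP+ cells (SE 0.54, adjusted p = 0.681), and by 0.30 with quantile normalization.

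Lamp2, which takes part in the fusion of lysosomes with autophagosomes, had counts of 5763, 1494 and 3991 in control GFP+, 5815, 6052 and 9720 in RasV12 GFP+, 15280, 6242 and 16214 in control CD11b+ and 2901, 1412 and 2611 in RasV12 CD11b+ libraries. RasV12 CD11b+ libraries were below both control CD11b+ and RasV12 GFP+ libraries without overlap. Lamp2 fell by 2.39 in RasV12 phagocytes (SE 0.50, adjusted p = 0.0185), and was lower there than in tumor GFP+ cells, at -1.67 (SE 0.50, adjusted p = 0.0185). It was higher in control phagocytes than GFP+ cells, at 1.83 (SE 0.50, adjusted p = 0.0176), and the RasV12 effects differed by -3.50 (SE 0.70, adjusted p = 0.0139). Background was 21.9 to 61.9% of its RasV12 CD11b+ counts.

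Cd68, a widely used macrophage marker, had counts of 102.2, 0 and 1 in control GFP+ libraries and 1497, 1347 and 868 in RasV12 GFP+ libraries. Control CD11b+ libraries had 21166, 3700 and 13091, and RasV12 CD11b+ libraries 2816, 1385 and 2390. The RasV12 GFP+ counts reached those of RasV12 CD11b+ 2. The summed microglia and macrophage markers were at 350.2 to 881.5 counts in RasV12 GFP+ libraries and at 278.5 to 1530 in control GFP+ libraries. Monocyte markers, of which 2 of 7 were higher in RasV12 GFP+ cells, summed to 772.9 to 1210 and to 250.3 to 1019 counts. Their median log2 difference was -0.42. The integrin genes Itga4 and Itgal were higher in every RasV12 than in every control GFP+ library. Lyz2 and Chil3 were highest in control GFP+ 1, at 661.6 and 327.2, against at most 36.8 and 6.3 in RasV12 GFP+ libraries. The part of these markers in the Cd68 counts was not tested. Cd68 rose by 7.67 in GFP+ cells (SE 1.30, adjusted p = 0.00331; 0.0646 with edgeR). Without control GFP+ 1, the only control library with more than 1 count, the value was 9.74. The tumor populations differed by 0.80 (SE 1.30, adjusted p = 0.636), the control populations by 10.74 (SE 1.30, adjusted p = 0.000138), and the RasV12 effects by -9.93 (SE 1.84, adjusted p = 0.00953).

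Laptm5, a lysosomal membrane protein gene of blood cells, had counts of 80.2, 150.8 and 98.7 in control GFP+, 0, 29.2 and 2.1 in RasV12 GFP+, 77102, 14998 and 72472 in control CD11b+ and 12665, 5926 and 13961 in RasV12 CD11b+ libraries. No groups overlapped. The gene fell by 4.56 in RasV12 GFP+ cells (SE 1.02, adjusted p = 0.0162), opposite to Cd68, and by 3.47 without RasV12 GFP+ 1. It was higher in phagocytes by 8.67 in controls (SE 1.02, adjusted p = 0.000113) and by 11.13 in tumors (SE 1.02, adjusted p = 5.94e-05). Over the 12 libraries genes with a pattern much like it included Mef2c and Coro1a, with Pearson's r of 0.965 and 0.964 on the log2 scale, where all points share the contrast of CD11b+ with GFP+ cells.

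Mcoln1, a calcium channel gene of the lysosome, had counts of 1547, 1055 and 1659 in control GFP+, 1899, 1658 and 2233 in RasV12 GFP+, 2449, 935.5 and 2907 in control CD11b+ and 378.8, 144 and 1165 in RasV12 CD11b+ libraries. The RasV12 CD11b+ libraries were the lowest except for library 3, and 2 of them were below their background estimate. It was lower in tumor phagocytes than tumor GFP+ cells, at -2.26 (SE 0.66, adjusted p = 0.0173). Scarb2, which carries glucocerebrosidase to lysosomes, passed nowhere, with group means of 1528 to 3056.

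Of the proton pump genes, Atp6ap1, an accessory subunit, had counts of 7612, 3749 and 8120 in control GFP+, 5211, 9196 and 8242 in RasV12 GFP+, 15742, 3345 and 14083 in control CD11b+ and 2068, 2204 and 538.7 in RasV12 CD11b+ libraries. RasV12 CD11b+ libraries were the lowest of all. Atp6ap1 fell by 2.75 from control to RasV12 phagocytes (SE 0.62, adjusted p = 0.0249) and was lower than in tumor GFP+ cells, at -2.44 (SE 0.62, adjusted p = 0.00866). Atp6v0d2, a pump subunit known from osteoclasts and macrophages, was without reads in control GFP+ libraries. With 3 reads over the group as the floor, control phagocytes were at least 21.8-fold higher. Its counts there, 11, 38.9 and 13.5, were near or below the background estimate, as were the 142.6, 11.1 and 121.9 of RasV12 CD11b+ libraries.

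Tfeb, the regulator, was a low gene throughout, at 194.2, 273.5 and 137.3 counts in control GFP+, 233, 148.5 and 179.2 in RasV12 GFP+, 609.1, 431.1 and 743.2 in control CD11b+ and 35.7, 27.7 and 193.4 in RasV12 CD11b+ libraries. Control CD11b+ libraries were the highest, and the RasV12 CD11b+ counts were all below the background estimate, which came to at least 175% of them. Tfeb fell by 3.30 in RasV12 phagocytes (SE 0.82, adjusted p = 0.0361; 0.112 with edgeR). In GFP+ cells it differed by -0.08 (SE 0.82), and the 2 groups overlapped. Grn, the gene of progranulin, a secreted protein that is split into granulins in lysosomes, had counts of 2229, 3277 and 934.9 in control GFP+, 4639, 5927 and 5291 in RasV12 GFP+, 77657, 13676 and 64524 in control CD11b+ and 11306, 6668 and 10953 in RasV12 CD11b+ libraries. All RasV12 GFP+ libraries were above the control ones, at a difference of 1.47 that did not pass (adjusted p = 0.158). Grn fell by 2.12 in RasV12 phagocytes (SE 0.57, adjusted p = 0.0458), was higher in control phagocytes than GFP+ cells by 4.43 (SE 0.57, adjusted p = 0.000202), and the RasV12 effects differed by -3.60 (SE 0.80, adjusted p = 0.0231). The fall passed in 13 of 29 alternatives. It was lost without control CD11b+ 1 or 3 (adjusted p = 0.202 and 0.197), and also without control GFP+ 1 (adjusted p = 0.061).

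The rest of the lysosomal system was described with 5 lists of 83 further genes, of which 78 were tested. Between phagocyte groups 15 were lower in RasV12 CD11b+ cells and none was higher by limma or edgeR, with 2 at an unadjusted p under 0.05 by limma and 1 higher by DESeq2. Over all genes 2.97% were higher and 2.39% lower. In GFP+ cells 3 were higher and 3 lower, beside 4.14 and 2.65% of all genes. In tumors 8 were higher and 29 lower in CD11b+ than GFP+ cells, beside 29.8 and 10.2% of all genes. In controls 19 were higher and 10 lower, beside 19.3 and 6.91%. Of the proton pump list 1 of 14 was higher and 11 were lower in tumor phagocytes, with a median of -1.84 beside 1.79 over all genes tested, a value that was -1.23 with background subtracted.

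Named by the smallest adjusted p of each list, Tcirg1, a pump subunit of osteoclasts and macrophages, was higher in control phagocytes than GFP+ cells, at 5.81 (SE 0.59, adjusted p = 4.21e-05). Atp6v1d, Atp6v1e1 and Atp6ap2 were lower in tumor phagocytes than tumor GFP+ cells, at -3.55, -2.40 and -2.38. Of the hydrolases Manba and Pla2g15 were higher in control phagocytes, at 7.77 and 9.56, and Smpd1, acid sphingomyelinase, was lower in tumor phagocytes than tumor GFP+ cells, at -5.04 (SE 0.98, adjusted p = 0.00264). Laptm4a, Laptm4b, Gnptg and Cd63, genes of membrane proteins and of sorting, were lower there too, at -3.46, -3.96, -3.50 and -2.09. Of the MiT/TFE and mTOR list, Tfec, Tfe3 and Rptor were higher in control phagocytes than GFP+ cells, at 6.93, 3.30 and 2.72, whereas Tfeb itself did not pass there (adjusted p = 0.161). Rraga was lower in tumor phagocytes than in tumor GFP+ cells, at -2.22.

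Of the 7 inhibitors of cathepsins and related proteases, 2 were higher and 1 was lower in control phagocytes than in control GFP+ cells. Cst3, the gene of cystatin C, had counts of 71866, 28708 and 33297 in control GFP+, 14444, 17123 and 11146 in RasV12 GFP+, 147002, 108183 and 134149 in control CD11b+ and 33685, 22585 and 24455 in RasV12 CD11b+ libraries. Control CD11b+ libraries were the highest, and, unlike most of the proteases, control CD11b+ 2 was not far from the other 2. It was higher in control phagocytes than GFP+ cells by 1.65 (SE 0.28, adjusted p = 0.0015), and fell by 1.55 in RasV12 GFP+ cells (SE 0.28, adjusted p = 0.00534) and by 2.28 in RasV12 phagocytes (SE 0.28, adjusted p = 0.00165). Cst7, the gene of cystatin F, was likewise without reads in control GFP+ libraries, and control phagocytes were at least 255-fold higher. Serpina3n and Cstb were lower in tumor phagocytes than in tumor GFP+ cells, at -6.27 and -2.99.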

How the data were processed

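RNA of 12 libraries, 4 groups of 3, was sequenced. Per the submitters' processing notes the authors used bcl2fastq 2.17.1.14, HISAT2 2.1.0, featureCounts of Subread 1.6.2 and DESeq2 1.20.0 with build GRCm38.p6. The authors deposited normalized counts (a signal scaled per library) and FPKM values. Each library's values were multiples of the worth of 1 read (at least 99.97% whole within 0.05), which gave the reads back. limma 3.58.1 (limma-trend, in R 4.3.3) was fitted to all 12 libraries with a mean for each group, on log2 values with a pseudocount of 1, a minimum of 10 in 3 libraries and Benjamini-Hochberg adjustment over all genes tested. edgeR 4.0.16 and DESeq2 1.42.0 on the recovered reads were alternatives, among 26 planned and 3 chosen after seeing the data. The fit was tested on simulated counts with the same spread in all libraries, no background, and changes placed in RasV12 GFP+ alone. Such data cannot show how the fit performs in the CD11b+ groups, whose spread and background differ. Exon lengths and overlaps came from a GENCODE annotation of GRCm38, in which 98.5% of the genes were matched. Counting error alone limits low counts where reads are few. Genes were described library by library if they passed in any comparison with a group mean of at least 100, and companion genes by the smallest adjusted p in each list; some genes that these rules name are not reported here. The 38 genes, the marker lists and the companion lists were chosen with earlier results of these data known. Figures were drawn with matplotlib 3.10.9. How cells were gated, and how many, is not given.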

Additional observations from a re-analysis of the deposited data

Results flagged for a closer look

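For 10 genes the RasV12 effect in CD11b+ cells differed from that in GFP+ cells by the interaction test of the limma fit, and every one of the differences was negative (effect in CD11b+ cells minus effect in GFP+ cells, log2 scale). The differences were -9.93 for Cd68 (adjusted p = 0.00953), -4.42 for Naglu (adjusted p = 0.0238), -4.37 for Ctsd (adjusted p = 0.0063), -3.84 for Man2b1 (adjusted p = 0.0187) and -3.61 for Tpp1 (adjusted p = 0.0102). They were -3.60 for Grn (adjusted p = 0.0231), -3.50 for Lamp2 (adjusted p = 0.0139), -3.29 for Asah1 (adjusted p = 0.0499), -2.75 for Ctsa (adjusted p = 0.0481) and -2.71 for Hexa (adjusted p = 0.0322). Only Ctsd and Tpp1 passed under every alternative run. Without control CD11b+ 1 the count was 4, beside 329 higher and 353 lower of all genes tested. Without control CD11b+ 3 it was 3, beside 292 higher and 286 lower. The part of background reads and of cell make-up, both of which differed between the CD11b+ groups, was not tested.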

How the results depend on the processing

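The 9 genes lower in RasV12 CD11b+ cells became 4 with a pseudocount of 0.1, 14 with 10, 5 without the filter, 16 with upper-quartile scaling, 22 with array weights, 0 in a fit of only the groups compared, 16 with DESeq2 and 3 without RasV12 CD11b+ 1 and 2 together. In the fit of only the groups compared 0 of all 29835 genes passed as well. Among alternatives chosen after seeing the data, the count was 14 with background subtracted. It was 20 with background subtracted, rescaled and control CD11b+ 2 left out. The 4 calls in GFP+ cells became 11 with array weights and 0 with edgeR. The 13 calls in tumor CD11b+ against GFP+ cells became 7 without RasV12 CD11b+ 1 and 2, and their median of -0.21 became -0.95 with upper-quartile scaling, -1.56 with edgeR, -0.74 with background subtracted, and reversed to 0.16 without RasV12 CD11b+ 1 and 2 and to 0.063 without RasV12 GFP+ 3. The 10 differences of effects became 22 with array weights, 6 without RasV12 CD11b+ 1 and 2, and 17 with background subtracted, rescaled and control CD11b+ 2 left out. Leaving out 1 library gave 2 to 7 calls in GFP+ cells, 0 to 25 in CD11b+ cells, 15 to 21 for control CD11b+ over GFP+ cells, 6 to 15 in tumors and 3 to 21 differences of effects. The medians then ranged from 0.30 to 1.013, -2.65 to -1.42, 1.54 to 3.06, -0.55 to 0.063 and -3.44 to -2.47. Calls over all genes moved as well. Between the CD11b+ groups they were 3745 higher and 1503 lower without control CD11b+ 2, against 219 and 154 without control CD11b+ 1.

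Signs turned for Ctsb in GFP+ cells (-0.012 and -0.022 without control GFP+ 3 or RasV12 GFP+ 3; -0.022 to 0.26 over single libraries left out) and in tumors (-0.47 with upper-quartile scaling, -0.998 with edgeR), and for Ctso (-0.24 with edgeR), Cd68 (-0.42 with edgeR) and Ctsd (0.16 and 0.17 with background subtracted and rescaled, with and without control CD11b+ 2) in tumors. They turned for Lamp1 in GFP+ cells (0.30, quantile) and in control CD11b+ over GFP+ cells (0.31 quantile, 0.29 array weights, 0.18 DESeq2, 0.66 without control CD11b+ 2, 0.024 without control GFP+ 1, -0.77 to 0.66 over single libraries left out, 0.53 with background subtracted, rescaled and control CD11b+ 2 left out). Tfeb turned in GFP+ cells (0.17 and 0.075 without control GFP+ 2 or RasV12 GFP+ 2; -0.33 to 0.17 over single libraries left out) and in tumors (0.074 without RasV12 CD11b+ 1 and 2). The cause was not tested.

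With the replicate number as a block the calls were 5, 12, 20, 15 and 13 in the order above. Deviations from the group means had r from -0.03 to 0.09 between same-numbered libraries and from -0.12 to 0.083 between differently numbered ones. With 3 libraries in a group such small values cannot decide whether the numbers pair the libraries, and the labels do not say. RasV12 CD11b+ 1 and 2 had the fewest reads, which limits their low counts.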
